A study of Mus musculus with 9 samples.

Results

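A set of 10 genes of the bone morphogenetic protein (BMP) pathway was followed during early differentiation of mouse embryonic stem (ES) cells: the ligand genes Bmp4, Bmp2 and Bmp7, and the target genes Id1, Id2, Id3, Smad6, Smad7, Msx1 and Msx2. They were chosen by symbol, as array probe sets whose annotation names only that gene, and each gene was read from its brightest probe set. All 10 were found among 18193 genes with such a probe set, and 9 of them were among the 8716 genes tested, those whose signal reached 50 on 2 or more of the arrays. Bmp7 did not reach that level and is described without a test.

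Total RNA was measured on 9 arrays, 1 for each group. One group is undifferentiated ES cells, kept per the labels' protocols with leukemia inhibitory factor and doxycycline. The other 8 are cells at 0.5, 1.5, 2.5 and 3.5 days of differentiation (D0.5 to D3.5) in serum-containing medium without that factor, in which doxycycline was present at 1 µg/ml (Dox+) or left out (Dox-). Doxycycline controls a constitutively active protein kinase A (PKA), a kinase that cyclic AMP normally activates; the labels do not state which medium switches it on, and all 9 groups are described as the same ES cells. The sources used here do not give the name of the ES line, the number of clones or the promoter of the construct.

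BMP ligands are secreted dimers that bind paired type I and type II receptors, which phosphorylate Smad1, Smad5 and Smad9. These join Smad4, enter the nucleus and switch on direct targets: the Id genes, whose products hold back basic helix-loop-helix factors, the inhibitory Smads Smad6 and Smad7, which damp the same receptors, and the homeobox genes Msx1 and Msx2. In ES cells BMP with leukemia inhibitory factor helps maintain self-renewal, and in the embryo BMP4 is needed for mesoderm formation and patterns its posterior and lateral parts.

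Signals were on 1 linear scale, with a trimmed mean of 100 on every array. The share of genes with a signal of at least 50 lay between 41.6% and 44.2%, and the Actb ratio of 3' over 5' probe sets, which reflects RNA integrity, between 1.60 and 1.98. Differences are of log2(signal + 16), which understates the change of dim genes. On D0.5 the 2 media were close: the middle 95% of the 8716 tested genes lay between -0.41 and 0.40 in Dox- minus Dox+, with an SD of 0.20 over genes. It widened to -0.82 to 0.78 on D1.5 and -1.24 to 1.30 on D2.5, and was -1.38 to 1.39 on D3.5. No group had a replicate, so the order of neighbouring arrays for 1 gene cannot be set against replicate spread. The ES marker genes Pou5f1, Nanog and Zfp42 read 2263, 1630 and 2834 in undifferentiated cells, so the defining markers of the labelled cell type were present.

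Bmp4 was high in undifferentiated cells, low in both media on D1.5, and highest on the last Dox- array. Its signal was 311.6 in undifferentiated cells. From D0.5 to D3.5 the Dox+ arrays read 60.5, 19.7, 13.7 and 27.9. The Dox- arrays read 51.1, 13.6, 120.1 and 1354.8, so the media were alike up to D1.5 and apart on D2.5 and D3.5. The single-day differences were -0.19, -0.27, 2.20 and 4.96 on the log2 scale.

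Bmp2, whose product is the close relative of BMP4, parted a day earlier. It read 3.4 in undifferentiated cells and 5.7, 3.1, 4.9 and 32.5 in Dox+, in order of day. The Dox- arrays read 3.2, 77.6, 143.1 and 642.4. Every Dox- array from D1.5 on lay above every Dox+ array, and the difference on D1.5 was 2.29 while that of Bmp4 was -0.27.

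Bmp7, a ligand of another BMP subgroup, was dim throughout. It read 14.4 in undifferentiated cells, between 14.0 and 18.7 on the Dox+ arrays, and 15.4, 9.6, 32.1 and 104.0 on the Dox- arrays. Its difference was 1.80 on D3.5, and 1.16 by its second probe set. Only the D3.5 Dox- array exceeded 50.

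**Figure D1:**
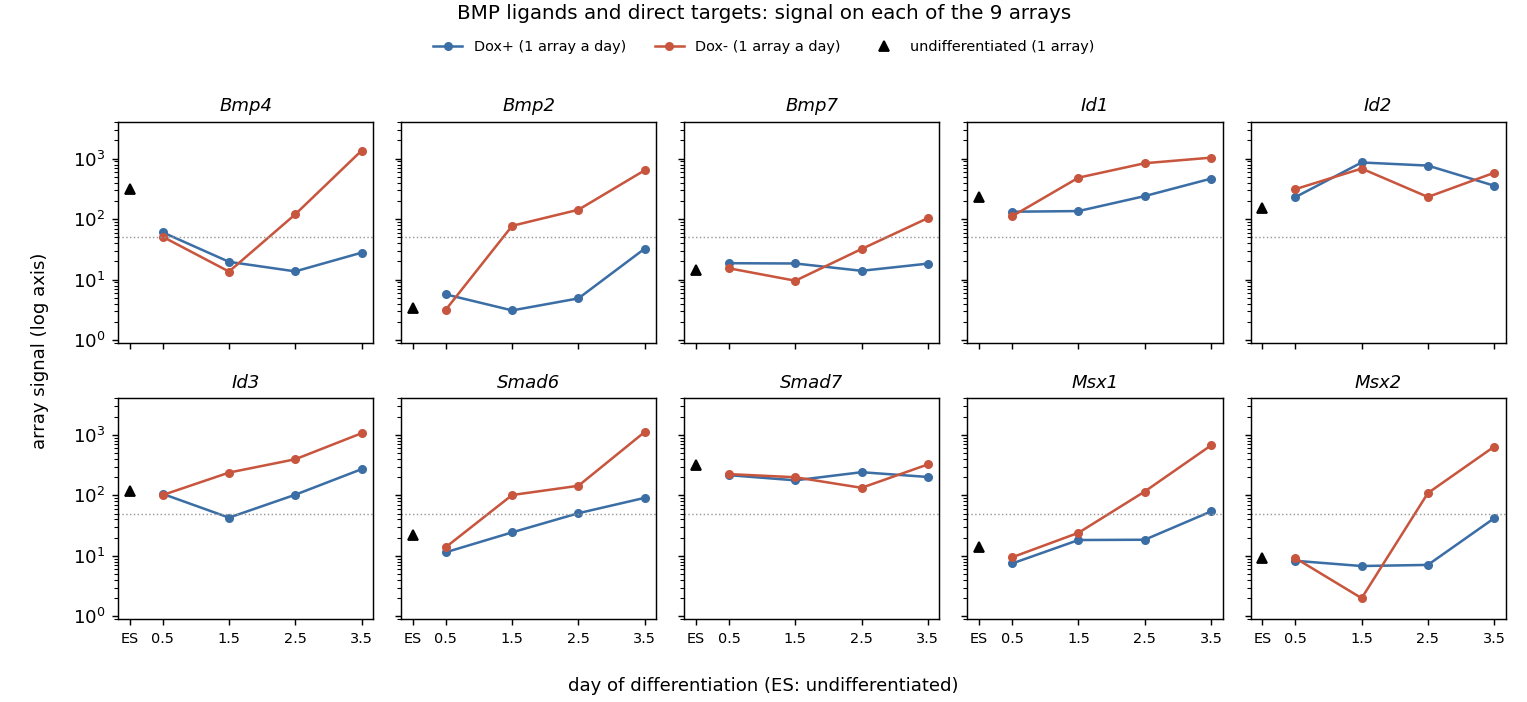
Array signal (log axis) of the 10 genes by day of differentiation, with 1 array per point: Dox+ in blue, Dox- in red, undifferentiated cells as a triangle, and a dotted line at a signal of 50. Bmp4 starts at 311.6 and ends at 1354.8 in Dox-, whereas Id2 and Smad7 cross between the media.

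Id1, Id3 and Smad6 were higher in Dox- from D1.5 on, when Bmp2 had parted and Bmp4 had not. Id1 and Id3 encode inhibitors of basic helix-loop-helix factors and are standard readouts of BMP signalling. Id1 read 228.1 in undifferentiated cells, 132.7, 136.0, 240.6 and 467.2 in Dox+, and 111.9, 485.1, 840.6 and 1038.8 in Dox-. Its differences from D1.5 to D3.5 were 1.72, 1.74 and 1.13, so the gap narrowed on the last day while both media were at their highest. Id3 read 119.7 in undifferentiated cells, 105.9, 42.9, 102.6 and 271.2 in Dox+, and 101.5, 238.4, 395.9 and 1065.2 in Dox-. The 2 media went opposite ways between D0.5 and D1.5, with steps of -1.05 in Dox+ and 1.11 in Dox-, each 1 array against 1.

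Smad6, which encodes an inhibitory Smad selective for BMP receptors, had 2 steps in Dox-. It read 22.0 in undifferentiated cells, 11.5, 24.5, 50.8 and 91.1 in Dox+, and 14.0, 101.5, 144.3 and 1117.2 in Dox-. The step from D0.5 to D1.5 in Dox- was 1.97, that to D2.5 was 0.45, and that to D3.5 was 2.82. Dox+ moved by 0.56, 0.72 and 0.68 over the same steps.

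Id2 and Smad7 did not follow. Id2, another inhibitor of basic helix-loop-helix factors, read 150.2 in undifferentiated cells, 231.3, 864.9, 768.1 and 357.4 in Dox+, and 313.2, 686.2, 232.6 and 583.9 in Dox-. Both media were at their highest on D1.5, and the difference was -1.66 on D2.5, then 0.68 on D3.5. Its second probe set gave -1.31 and 1.24. Smad7, an inhibitory Smad that also acts on TGF-beta and activin receptors, stayed between 133.5 and 325.0 on all 9 arrays. Its Dox+ arrays read 216.1, 177.5, 241.9 and 201.7, and its Dox- arrays 224.9, 199.6, 133.5 and 325.0, so the media overlapped; the differences were -0.79 on D2.5 and 0.65 on D3.5.

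Msx1 and Msx2, homeobox genes of posterior and lateral mesoderm and later of limb and neural crest, parted between D1.5 and D2.5. Msx1 read 14.3 in undifferentiated cells, 7.5, 18.3, 18.5 and 54.3 in Dox+, and 9.5, 24.1, 116.0 and 670.7 in Dox-. Msx2 read 9.2 in undifferentiated cells, 8.3, 6.8, 7.1 and 41.9 in Dox+, and 9.2, 2.0, 109.3 and 639.7 in Dox-. Both were dim on D1.5 in both media and higher in Dox- on D2.5 and D3.5, by 1.94 and 3.29 for Msx1 and by 2.44 and 3.5 for Msx2. A second, dimmer probe set gave 0.98 and 2.63 for Msx1, but only 0.60 and 0.58 for Msx2, whose second probe set read at most 22.7.

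**Figure D2:**
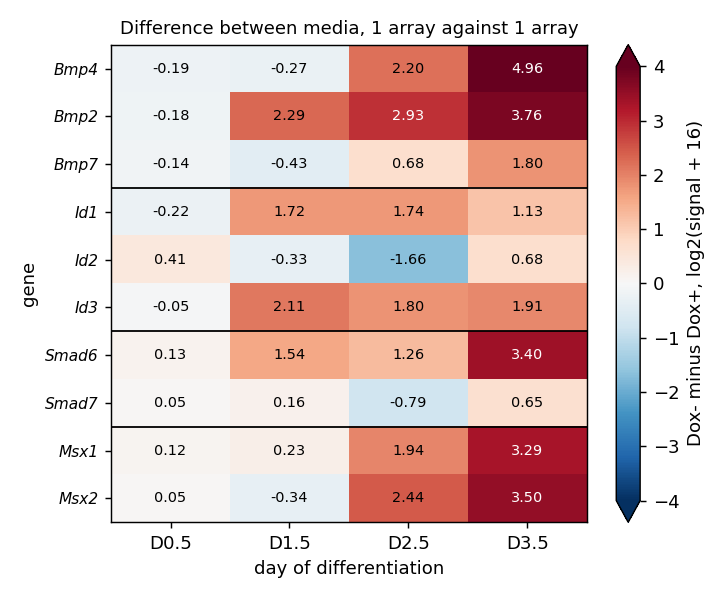
Dox- minus Dox+ difference in log2(signal + 16) for the 10 genes (rows) on each day (columns), 1 array against 1 array, with lines between ligands, Id genes, inhibitory Smads and Msx genes. The D0.5 column lies between -0.22 and 0.41, Bmp2, Id1, Id3 and Smad6 are the 4 genes above 1 on D1.5, and Id2 is at -1.66 on D2.5.

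Counted by day, 0 of the 9 tested genes were at least 2-fold higher or lower on D0.5, where 0.0918% of all tested genes were higher and 0.0229% lower. On D1.5, 4 of 9 were at least 2-fold higher in Dox- (Bmp2, Id1, Id3 and Smad6), against 1.33% of all tested genes, and 0 were lower, against 1.42%. On D2.5, 7 of 9 were higher, against 3.41%, and 1 (Id2) was lower, against 4.45%. On D3.5, 7 of 9 were higher, against 4.13%, and 0 were lower, against 4.8%. Over all 10 genes, Bmp7 included, the median difference went from 0.00 on the first day through 0.19 and 1.77 to 2.60 on the last, while the daily median of the 8716 tested genes lay between -0.04 and 0.01. These counts compare single arrays and carry no test. Bmp2 and Msx2 reached a signal of 50 on Dox- arrays only, and Msx1 on 1 Dox+ and 2 Dox- arrays, so these 3 entered the tested genes only by being high in Dox-, and the counts and medians of tested genes lean on that.

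Over the 4 days together, in a limma fit that blocks on the day, 0 of the 9 genes passed, and 0% of all 8716 genes did (1026 had an unadjusted p under 0.05, 5 of the 9 among them). The fitted Dox- minus Dox+ difference was largest for Bmp2, at 2.20 ± 0.61 (SE, 4 days; limma adjusted p = 0.416). Id3 gave 1.44 ± 0.36 and Id1 1.09 ± 0.33, both with the same adjusted p, and Bmp4 gave 1.68 ± 0.87 (adjusted p = 0.452). For Smad7 the difference was 0.02 ± 0.22, with a 95% interval from -0.53 to 0.56, and for Id2 it was -0.22, with an interval from -1.12 to 0.68. A difference that moves from day to day counts as spread in this fit. A steady change of the difference with day was also tested, and 0 of the 9 genes passed (limma; 0% of all genes, 736 with an unadjusted p under 0.05). The steepest was Bmp4, at 1.79 ± 0.59 per day (adjusted p = 0.562), and Bmp2 gave 1.25 ± 0.26 (adjusted p = 0.407).

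On D2.5 and D3.5 together, Bmp4, Bmp2 and both Msx genes were higher in Dox-. This late-day fit tests a single difference for both days, blocks on the day and takes the 2 earlier pairs of arrays as spread; the days were chosen with results of these arrays known, so its p-values describe these arrays. It called 4 of the 9 genes higher, against 2.83% of all tested genes, and 0 lower, against 4.35%. Of these 4, Bmp2, Msx1 and Msx2 are the 3 that would not have passed the signal filter without their Dox- arrays; of the other 6 tested genes 1 was called, Bmp4, so nothing is read from the count. With no signal filter, over all 18193 genes, the 4 genes were called with limma adjusted p between 0.00572 and 0.0475. The Bmp4 difference was 3.58 ± 0.55 (SE, limma adjusted p = 0.0132) and that of Bmp2 3.35 ± 0.66 (adjusted p = 0.0294). Each SE comes from the fit to all 8 differentiating arrays. Its spread holds the 2 earlier pairs and also the gap between the 2 late days. For Bmp4 the late differences were 2.20 on D2.5 and 4.96 on D3.5. Msx2 was higher by 2.97 ± 0.30 (adjusted p = 0.00403) and Msx1 by 2.61 ± 0.32 (adjusted p = 0.00714).

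The targets that had parted on D1.5 did not pass in that fit. Smad6 gave 2.33 ± 0.59 (limma adjusted p = 0.0641), Id3 1.85 ± 0.57 (0.103) and Id1 1.43 ± 0.49 (0.129). The fit counts the D1.5 difference of these genes as spread; without both arrays of D1.5, Smad6, Id3 and Id1 passed, with adjusted p = 0.0313, 0.00176 and 0.00783 and the same differences, and 7 of the 9 genes were called. Id2 gave -0.49 (95% interval -1.60 to 0.63) and Smad7 -0.07 (-0.77 to 0.63). Bmp2 lost its call when D0.5, D2.5 or D3.5 was left out, with adjusted p between 0.0639 and 0.167, and at a pseudocount of 1; without D3.5 Id2 was called lower, at -1.66 (adjusted p = 0.0244), and without D2.5 Smad6 was called, at 3.40 (adjusted p = 0.0276).

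**Figure D3:**
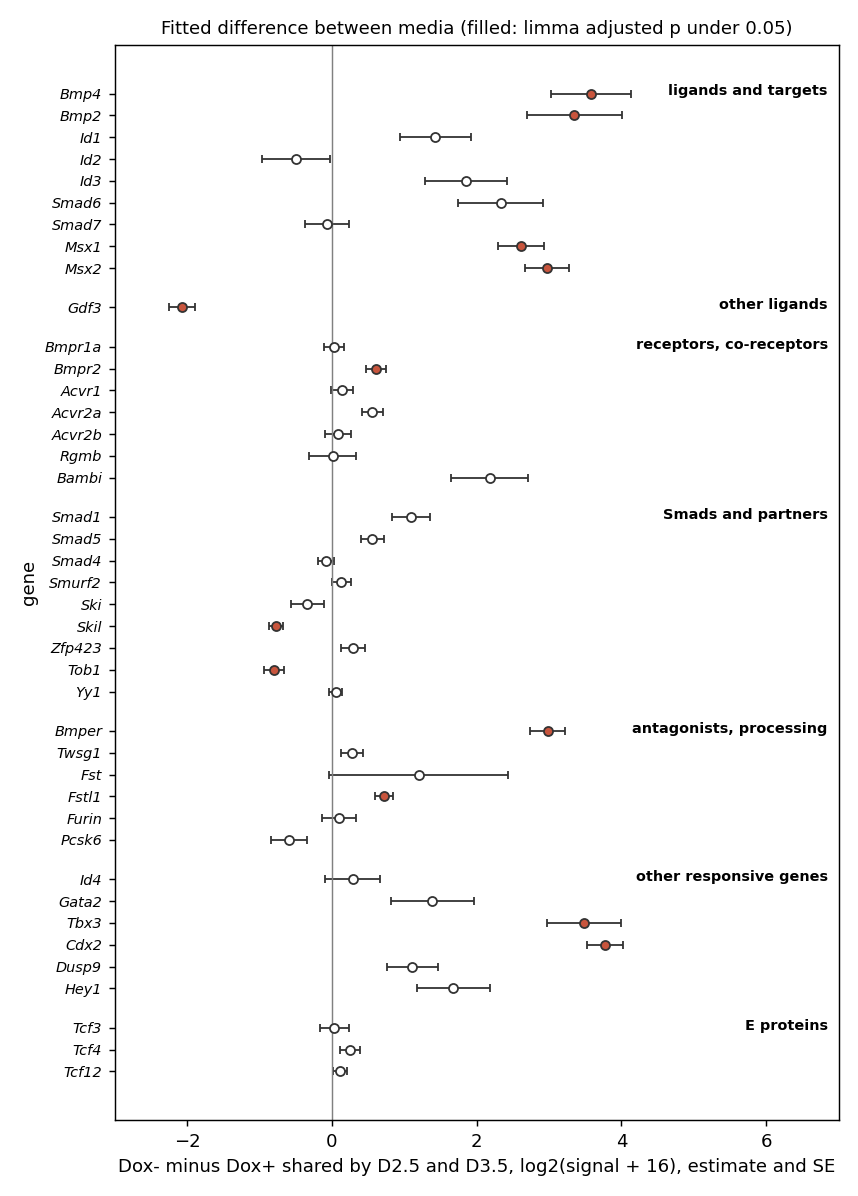
Fitted difference of Dox- over Dox+ common to D2.5 and D3.5, in log2(signal + 16) with its SE, for the 9 tested genes and 32 other tested genes of the pathway, by role; filled points have a limma adjusted p under 0.05. Msx2 at 2.97, Bmper at 2.98 and Cdx2 at 3.77 have narrow errors beside Bmp4 at 3.58, and Gdf3 at -2.07 lies furthest to the left.

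From D0.5 to D3.5, over both media, 5 of the 9 genes rose, against 11.8% of all tested genes, and 0 fell, against 10.2%. Of these 5, Bmp2 and Msx1 entered the tested genes only by being high in Dox-, so nothing is read from the count. With the medium as a block in limma, the genes that rose were Smad6 (3.60 ± 0.68, SE, adjusted p = 0.0178), Msx1 (3.17 ± 0.77, 0.0343), Bmp2 (3.13 ± 0.86, 0.0476), Id1 (2.37 ± 0.47, 0.0192) and Id3 (2.22 ± 0.51, 0.0294). Each SE comes from the fit to all 8 differentiating arrays, and its spread is how far the changes between days differ between the 2 media. Smad6 rose by 1.96 in Dox+ and by 5.24 in Dox-. Msx2 gave 2.98 ± 0.94 (0.0693) and Bmp4 1.78 ± 1.22 (0.326). Within Dox+ alone, Id1 went from 132.7 to 467.2 and Smad6 from 11.5 to 91.1, and Bmp4 from 60.5 to 27.9. Without the medium as a block 0 of the 5 passed. Bmp2 also lost its call under 6 other settings, with adjusted p from 0.0551 to 0.0725, and Msx1 at a pseudocount of 64 and with the mean of its probe sets (0.0643 and 0.0633).

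Set against undifferentiated cells, the D3.5 arrays of both media were at least 2-fold higher for Bmp2, Id2, Id3, Smad6, Msx1 and Msx2, and Dox- also for Bmp4 and Id1. That is 6 of 9 genes higher in Dox+, against 11.1% of all tested genes, and 8 of 9 in Dox-, against 12.7%. Bmp2, Msx1 and Msx2 count in both and entered the tested genes only by being high in Dox-, so nothing is read from these counts. On the D3.5 Dox+ array Bmp2 and Msx2 read 32.5 and 41.9, below the filter level of 50. In Dox+ Bmp4 was the 1 gene lower, at -2.90, against 6.34% of all tested genes. In Dox- 0 of 9 were lower, against 8.86%, and Bmp4 was at 2.07. Both comparisons share the 1 undifferentiated array and carry no test.

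The promoter windows, 250 bases before to 50 after each gene's start, were given in RefSeq for 6 of the 10 genes (build GRCm38.p6). They are shown for a target that parted early with a Smad motif at its start, for Id3 and Msx2, which share a cyclic AMP half-site, since the construct is a cyclic AMP-dependent kinase, and for Id2, which did not follow them. Capitals mark motif letters, read on both strands. Smad6 lies at chr9:64022010-64022309 on the minus strand, Id3 at chr4:136143572-136143871 on the plus strand, Msx2 at chr13:53472731-53473030 on the minus strand and Id2 at chr12:25096043-25096342 on the minus strand.
Smad6: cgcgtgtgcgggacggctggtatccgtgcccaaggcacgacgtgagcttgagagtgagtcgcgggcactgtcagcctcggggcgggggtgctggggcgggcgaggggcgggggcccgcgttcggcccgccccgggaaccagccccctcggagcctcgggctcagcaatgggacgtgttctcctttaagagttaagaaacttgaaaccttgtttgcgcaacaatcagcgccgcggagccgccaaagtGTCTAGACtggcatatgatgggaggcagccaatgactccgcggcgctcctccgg
Id3: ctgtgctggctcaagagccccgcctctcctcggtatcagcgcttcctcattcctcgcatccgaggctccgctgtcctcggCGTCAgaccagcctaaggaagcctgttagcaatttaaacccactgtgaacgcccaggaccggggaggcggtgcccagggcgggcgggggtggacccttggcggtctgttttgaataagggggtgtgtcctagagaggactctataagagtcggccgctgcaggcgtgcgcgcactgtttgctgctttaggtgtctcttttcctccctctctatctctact
Msx2: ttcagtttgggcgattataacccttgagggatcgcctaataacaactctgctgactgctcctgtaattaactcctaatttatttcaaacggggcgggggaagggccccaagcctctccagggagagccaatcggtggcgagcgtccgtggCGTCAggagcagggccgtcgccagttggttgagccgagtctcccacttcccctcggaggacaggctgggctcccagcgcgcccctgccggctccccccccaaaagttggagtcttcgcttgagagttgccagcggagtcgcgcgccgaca
Id2: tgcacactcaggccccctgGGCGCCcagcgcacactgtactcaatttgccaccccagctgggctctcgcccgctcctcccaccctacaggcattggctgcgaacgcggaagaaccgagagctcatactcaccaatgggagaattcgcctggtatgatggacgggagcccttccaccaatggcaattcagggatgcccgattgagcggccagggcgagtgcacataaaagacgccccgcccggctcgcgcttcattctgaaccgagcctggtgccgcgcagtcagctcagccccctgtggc

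The Smad palindrome GTCTAGAC was found in Smad6 alone of the 6 windows, starting 4 bases before the start site, and in 0.213% of all 32851 windows. The GC-rich Smad site GGCGCC was found in Id2 alone, 231 bases before its start, and in 11.9% of all windows. The full cyclic AMP response element TGACGTCA was found in 0 of the 6 and in 1.79% of all windows. Its half-site TGACG, which any full element also contains, was found as its complement in Id3, 170 bases before the start, and in Msx2, 100 bases before the start, and in 20.8% of all windows. So 2 of 6 windows held the half-site, and the windows of Bmp4 and Msx1 held none of the 4 motifs. A match is a description of letters, not of binding.

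Other genes of the pathway were read from 6 lists by role, with 74 genes in all, of which 69 had a probe set and 32 were tested. In the late-day fit, 5 of the 32 were called higher in Dox- and 3 lower, against 2.83% and 4.35% of all tested genes. Of the 32, 7 (Bmper, Cdx2, Gata2, Hey1, Id4, Pcsk6 and Rgmb) would not have passed the signal filter without their Dox- arrays, among them 2 of those called higher, Bmper and Cdx2. Over the 4 days 0 of the 32 passed.

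Among the other ligands, only Gdf3 was tested. It encodes a TGF-beta family ligand of pluripotent cells that can act through Nodal receptors and hold back BMP. It read 1128.8 in undifferentiated cells, 979.3, 638.7, 481.6 and 252.9 in Dox+, and 939.8, 508.6, 80.2 and 62.9 in Dox-. It was lower in Dox- on D2.5 and D3.5, at -2.07 ± 0.18 (limma adjusted p = 0.0027), and fell from D0.5 to D3.5 (-2.74 ± 0.56; adjusted p = 0.0214), a call lost without the medium as a block (0.061). The other 9 ligand genes with a probe set stayed below the signal filter; Bmp5, named after its values were seen, read 119.6 on the D3.5 Dox- array and at most 16.8 on the others.

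Of 7 tested receptor and co-receptor genes 1 was called, Bmpr2, the main type II BMP receptor gene, at 0.61 ± 0.14 (limma adjusted p = 0.0443), and it lost this call under 6 of the alternative settings, with adjusted p from 0.0626 to 0.17. The type I receptor gene Bmpr1a gave 0.03 (95% interval -0.29 to 0.35) and Acvr2a, a type II receptor gene shared with activin, 0.56 ± 0.14 (adjusted p = 0.0545), and Acvr2a was called with the mean of its probe sets and without the block (0.0441 and 0.0213). Rgmb, a BMP co-receptor gene, gave 0.69 on D2.5 and -0.66 on D3.5. Bambi, which encodes a decoy receptor and is itself a BMP target, read 60.1, 79.3, 105.1 and 117.7 in Dox+ and 69.4, 165.6, 221.8 and 1377.4 in Dox-. Its differences were 0.93 on D1.5 and 3.38 on D3.5, and the fit gave 2.18 ± 0.53 (adjusted p = 0.0567), with a call gained without D2.5 (0.00664). From D0.5 to D3.5 Bmpr2 (0.68 ± 0.18) and the type I receptor gene Acvr1 (0.63 ± 0.16) rose (limma adjusted p = 0.0441 and 0.0354), with Bmpr2 losing the call under 4 settings and Acvr1 under 3.

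Among Smads and their partners, the late-day fit called 2 of 9 tested genes lower and 0 higher. The lower genes were Skil, a co-repressor of Smads, at -0.77 ± 0.10 (limma adjusted p = 0.00851), and Tob1, an inhibitor of BMP Smads, at -0.80 ± 0.14 (0.0199). Averaging over probe sets ended both calls, with adjusted p = 0.0551 and 0.0975, and Tob1 also lost its call without D0.5 or D2.5 (0.0664 and 0.101). Smad1 read 1450.9 on the D2.5 Dox- array against 439.8 in Dox+, and 979.5 against 694.9 on D3.5; the fit gave 1.09 ± 0.26 (adjusted p = 0.0512), and Smad1 passed under 4 other settings, with adjusted p from 0.00872 to 0.0494. Smad5 gave 0.56 ± 0.16 (0.0829), and Smad4 -0.08 (95% interval -0.34 to 0.19). From D0.5 to D3.5 Smad1 (1.64 ± 0.39), Smad4 (0.56 ± 0.11) and the ubiquitin ligase gene Smurf2 (0.54 ± 0.14) rose, and Zfp423, a Smad cofactor gene, fell (-0.99 ± 0.21), with limma adjusted p between 0.0208 and 0.0421. Smad1 lost that call under 2 settings and Smurf2 under 3.

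Of the secreted antagonists and processing enzymes, 6 of 18 genes with a probe set were tested. Bmper, which encodes an extracellular BMP modulator, was higher in Dox- by 2.98 ± 0.24 (limma adjusted p = 0.00189), with 247.7 against 12.2 on D2.5 and 391.2 against 44.8 on D3.5. It reached 50 on these 2 Dox- arrays alone, and with no signal filter its adjusted p was 0.00316. Fstl1, a follistatin-like gene, was higher by 0.72 ± 0.13 (0.0206), a call that was lost without D0.5, D2.5 or D3.5 and without the block (adjusted p from 0.0664 to 0.308). Fst, whose product follistatin binds activin and some BMPs, had a peak of its own: 2098.0 on D2.5 and 289.3 on D3.5 in Dox-, and 107.1 and 973.4 in Dox+. Its differences from D1.5 to D3.5 were therefore 2.14, 4.10 and -1.70, and the fit gave 1.20 ± 1.24 (adjusted p = 0.598). From D0.5 to D3.5 the proprotein convertase gene Furin rose (1.08 ± 0.24) and Pcsk6, another convertase gene, fell (-1.59 ± 0.35), with limma adjusted p = 0.0284 and 0.0265. Pcsk6 reached a signal of 50 on the D0.5 arrays alone, at 57.6 and 65.1. Furin reached it on D2.5 in Dox+ (50.6) and on D3.5, at 68.6 and 98.5. Each was tested only by being high on a day that the fit compares, so both calls lean on the filter. Fst gave 4.42 ± 1.21 (limma adjusted p = 0.0469), a call lost under 6 settings. Nog and Chrd, the classical BMP antagonist genes noggin and chordin, named after their values were seen, read at most 3.2 and 10.3 on any array.

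Among other genes reported to respond to BMP, 2 of 6 tested genes were called higher. Cdx2, a caudal homeobox gene of posterior mesoderm and trophoblast, was higher by 3.77 ± 0.25 (limma adjusted p = 0.00135), with 225.2 against 4.9 on D2.5 and 914.7 against 42.0 on D3.5. It too reached 50 on these 2 Dox- arrays alone, and with no signal filter its adjusted p was 0.00208. Tbx3, a T-box gene of naive pluripotency and later of mesoderm, read 811.5 in undifferentiated cells, 280.2, 74.8, 11.3 and 58.6 in Dox+, and 283.6, 10.2, 217.8 and 1061.2 in Dox-. It shares with Bmp4 a high level in undifferentiated cells, a low one on D1.5 in Dox- and a high one on D3.5 in Dox-; the fit gave 3.48 ± 0.51 (adjusted p = 0.0118), a call lost without D3.5 (adjusted p = 0.0742) and without the day as a block (0.186). Hey1, a target of Notch and BMP signals, gave 1.34 on D1.5 and 2.56 on D3.5 (1.68 ± 0.51; adjusted p = 0.0996). It rose from D0.5 to D3.5 (2.44 ± 0.57; limma adjusted p = 0.0305), a call lost at a pseudocount of 64 and without the block (0.0536 and 0.0861). Gata2 and Id4, named after their values were seen, were highest in Dox- on D1.5, at 108.2 against 14.2 and at 104.5 against 36.9, and differed by 2.04 and 1.19 there. Tbx2, Gata3 and Hand1, also named after their values were seen, stayed below the signal filter and read 97.1, 63.3 and 97.4 on the D3.5 Dox- array.

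**Figure D4:**
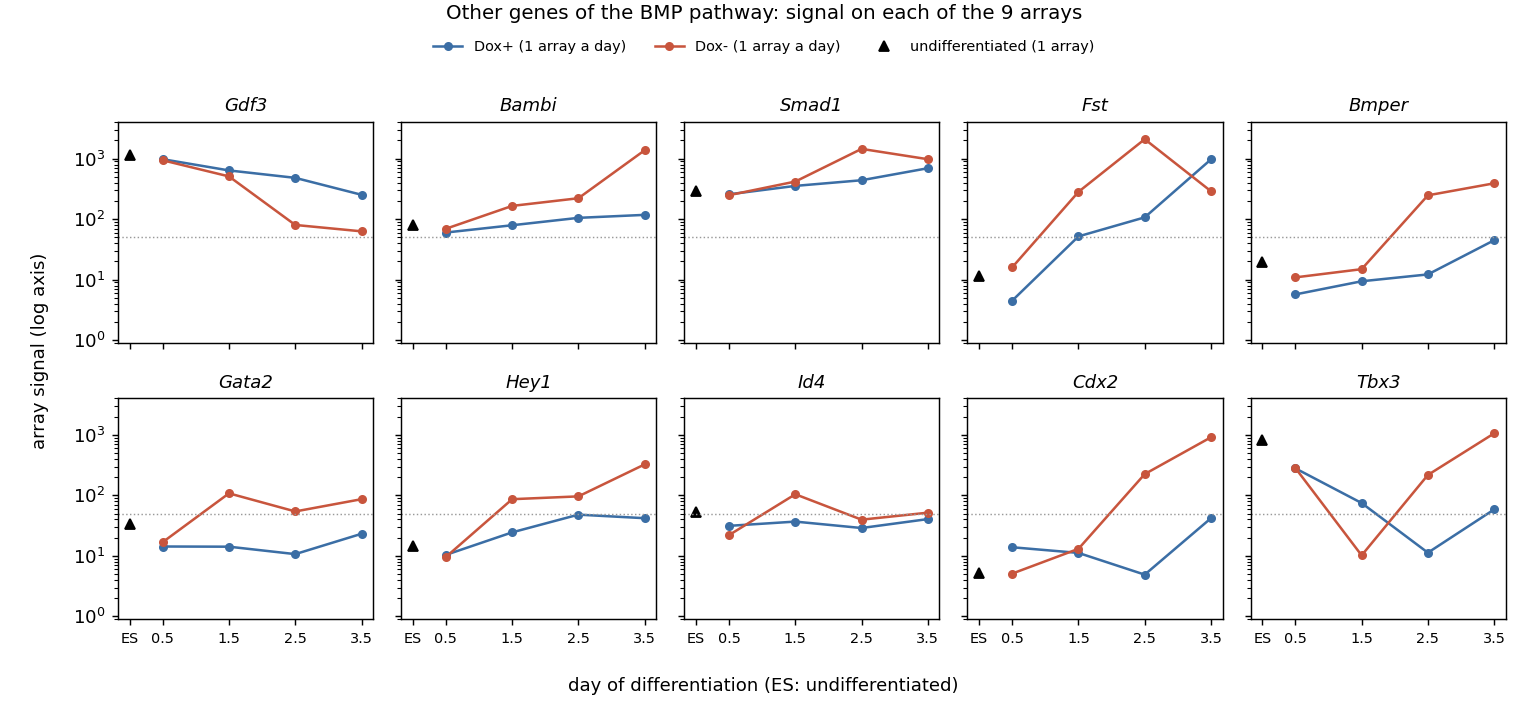
Array signal (log axis) by day of differentiation for 10 other pathway genes, with 1 array per point, symbols and the dotted line at 50 as in the plot of the ligands and targets. Fst is at 2098.0 on D2.5 in Dox- and at 973.4 on D3.5 in Dox+, and Gata2 and Id4 are highest in Dox- on D1.5.

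The E protein genes Tcf3, Tcf4 and Tcf12, whose products are bound by Id proteins, differed little between media: 0 of 3 were called, and the 95% intervals in the late-day fit were -0.45 to 0.51, -0.07 to 0.57 and -0.13 to 0.34. Tcf12 rose from D0.5 to D3.5 (0.77 ± 0.11; limma adjusted p = 0.00803).

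Markers of other cell types also differed between the media. On D1.5 the 5 markers of blood and endothelial precursors had a summed signal of 748.9 in Dox- and 90.7 in Dox+, with 4 of 5 at least 2-fold higher; Pecam1 and Cdh5 stayed below 50 on every array. On D2.5 all 6 markers of primitive streak and nascent mesoderm were at least 2-fold higher in Dox-, with sums of 5533 and 78.9, and on D3.5 3 of 6 were, with 2870 and 1652. Eomes and Gsc were lower in Dox- on D3.5, at 540.3 against 911.4 and at 25.5 against 41.0. On D3.5 all 5 markers of lateral plate and heart mesoderm were at least 2-fold higher, with sums of 2217 and 59.8. Over the 4 days the sums of these 3 lists ranged over 107 to 748.9, 122.4 to 5533 and 28.6 to 2217 in Dox-, and over 80.8 to 92.2, 78.9 to 1652 and 19.7 to 59.8 in Dox+. In Dox- the blood and streak sums were highest on D1.5 and D2.5 and read 389.8 and 2870 a day later. Bmp2, Id1, Id3 and Smad6 rose at each step in Dox-. The sums on D3.5 in Dox- and Dox+ were 340.3 and 103.8 for 3 definitive endoderm markers, 516.4 and 134 for 5 extraembryonic endoderm markers, and 256.4 and 64.1 for 4 trophoblast markers. At least 2-fold higher in Dox- were 2 of 3, 3 of 5 and 2 of 4 of these. The definitive endoderm marker Foxa2 went the other way, with 11.5 in Dox- and 78.6 in Dox+. The D3.5 sums in Dox- and Dox+ were 935.6 and 4080 for 5 markers of ES cells, 107.2 and 2395 for 3 of primed epiblast and 33.7 and 72.9 for 4 of neural ectoderm. At least 2-fold lower in Dox- were 2 of 5, 3 of 3 and 1 of 4 of these, and 0 were higher. The 2 lower ES markers were Pou5f1 and Nanog, while Zfp42, Klf2 and Esrrb read at most 71.2 in either medium on that day. Afp, Gata4, Krt7, Elf5, Pax6 and Neurog2 stayed below 50 on every array. Hand1 and Gata3 stand both in a marker list and in a pathway list. The 5 fibroblast markers summed to 350.4 on the D3.5 Dox- array and to between 30.6 and 105.8 on the other differentiating arrays, with Col3a1 and Fap below 50 throughout. No marker was at 0 on any array. The part of these markers in the results was not tested, and in bulk RNA more cells of a type cannot be told apart from more RNA per cell.

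Across the 9 arrays, Bmp2, Id1, Id3, Smad6, Msx1 and Msx2 had similar courses. Their pairwise Pearson correlations of log2(signal + 16) ranged from 0.78 to 0.98, with Msx1 and Msx2 highest. Bmp4 correlated with these 6 at 0.48 to 0.78, Id2 with them at -0.04 to 0.29 and Smad7 at -0.03 to 0.20. Bmp4 correlated with Smad7 at 0.57 and with Id2 at -0.35, and Id2 with Smad7 at -0.06. Among the other 8707 tested genes the courses closest to Bmp4 were those of Cacna2d2, Slc25a4 and Derl2 (0.974, 0.974 and 0.969), to Id3 those of H13, Wbp4 and Lman2 (0.987, 0.980 and 0.977), and to Msx2 those of Zfp703, Greb1l and B4galt1 (0.991, 0.986 and 0.986). Likeness here is of shape, not of size: Slc25a4 ran from 1807 to 3431, and Zfp703 from 1.2 to 296.6. The 9 arrays are 1 time course in 2 media, so these values are a description and carry no p.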

How the data were processed

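Per the submitters' processing notes the authors used GCOS, Affymetrix's array software, and they deposited linear intensity values, 1 per probe set and array, for 9 arrays; no source used here gives its version or background correction. A label names an average of 100, and after trimming 2% of the 45101 probe sets at each end every array's mean was 100, so nothing was rescaled. Gene symbols are those of the platform, brought up to date by gene ID (RefSeq, GRCm38.p6) for 34741 of 34945 probe sets with 1 symbol; 932 with several were left out. Fits on log2(signal + 16) used limma 3.58.1 in R 4.3.3 (lmFit, eBayes with trend; 3 residual degrees of freedom, 4 for the change with day) on the 8716 genes that reached 50 on 2 arrays, with Benjamini-Hochberg adjustment over all of them and a threshold of 0.05. Days serve as repeats of the media comparison and media of the day comparison, so p-values measure only the spread between these arrays, and their number limits the precision. The fits were tried on simulated data with planted differences and independent noise on each array. Such data cannot show whether days or media can serve as repeats.

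The genes, lists and comparisons were chosen with earlier results of these data known. Pathway genes are named if a fit called them, if they were among the 3 tested genes of their list furthest apart between media on any day, or, as said there, after their values were seen; the 3 closest courses are named for Bmp4, Id3 and Msx2. Alternatives were pseudocounts of 1 and 64, no signal filter or one of 100, quantile normalization, the mean of probe sets, no trend, no block and leaving out each day.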

Additional observations from a re-analysis of the deposited data

How the results depend on the processing

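The labels give no replicate numbers; the pairing used is that of the day, as a block in the fits of media, and of the medium in the fit of days. Over the settings run, 352 of 387 fitted values of the 9 tested genes kept their direction and their side of the threshold, 17 lost a call, 5 gained one and 13 changed sign. Of 1352 fitted values of the other pathway genes 1249 kept both, 37 lost a call, 13 gained one and 53 changed sign. In 0 of these sign changes was either value called. Of 200 single-day values of the 9 tested genes, 56 moved by more than 0.20, the SD over genes on D0.5. With 1 day left out, the difference over 4 days ran from -0.52 to 0.26 for Id2 and from -0.19 to 0.29 for Smad7. The late-day difference ran from -1.66 to 0.68 for Id2, -0.79 to 0.65 for Smad7, -0.16 to 0.22 for Bmpr1a, -1.70 to 4.10 for Fst and -0.26 to 0.32 for Tcf3. The change with day ran from -0.30 to 0.98 for Id1, -1.03 to 0.51 for Id2, -0.10 to 0.92 for Id3 and -0.42 to 0.25 for Smad7. Without the block the late-day value was 0.00 for Smad7 and 0.18 for Smad4. With the mean of probe sets it was 0.00 for Smad4, and the change with day was 0.07 for Id2 and -0.01 for Smad7. With D2.5 and D3.5 fitted together, all tested genes gave 626 calls, 414 without the day as a block and 228 to 791 with 1 day left out; of the 9 genes 4 were called, and 3 to 7 with 1 day left out. From D0.5 to D3.5, the 5 calls became 3 at a pseudocount of 64 (Id1, Id3 and Smad6), the same 3 with the mean of all probe sets, and 0 without the medium as a block. The 0 calls over the 4 days and for the change with day stayed at 0 under every setting run. The change with day has no block to leave out, so that alternative was not run, and leaving out a day was not planned for D0.5 to D3.5. Among all genes at least 2-fold apart on single days, D0.5 gave 10, and 77 at a pseudocount of 1, 1 at 64, 20 without the signal filter and 2 with the mean of probe sets. D1.5 gave 240, and 425 at a pseudocount of 1, 82 at 64 and 153 with the mean of probe sets. D2.5 and D3.5 gave 685 and 778, and 343 and 414 at a pseudocount of 64. The cause of these shifts was not tested. A quantile normalization moved the median of all tested genes by at most 0.07 on any array. Dim signals limit Bmp7 and the early values of Bmp2, Msx1 and Msx2, whose differences below a signal of 50 have no replicate to judge them by.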

Other observations

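The Dox+ array of D3.5 and the Dox- array of D1.5 had similar levels of the early targets: Id1 read 467.2 and 485.1, Id3 271.2 and 238.4, and Smad6 91.1 and 101.5. The Dox+ array of D3.5 was higher for Msx1 (54.3 and 24.1) and Msx2 (41.9 and 2.0) and lower for Bmp2 (32.5 and 77.6) and Id2 (357.4 and 686.2), and Bmp4 read 27.9 and 13.6. These are single arrays, chosen after the values were seen, and were not tested.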
